A study of Mus musculus with 12 samples.

Results

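The genes described here encode 10 components of the insulin receptor signalling pathway: the receptor (Insr), its substrates (Irs1 and Irs2), the regulatory and catalytic subunits of phosphoinositide 3-kinase (Pik3r1 and Pik3ca), the kinases Akt1 and Akt2, the transcription factors Foxo1 and Foxo3, and the receptor-binding adaptor Grb14. They were chosen by name from the 54532 genes counted in each liver library, and each name matched exactly 1 gene. The livers came from male PPARγ flox/flox mice that had been injected at 8 weeks of age with an adeno-associated virus, serotype AAV8, with the gene for Cre recombinase (PPARγ-KO) or for green fluorescent protein (WT) behind the thyroxine-binding globulin promoter, which is active in hepatocytes. Both genotypes therefore carried the floxed alleles and a virus, and both were fed a fast-food diet (FFD) with 21% fat and 34% sucrose by weight and 0.2% cholesterol, with fructose and glucose in the drinking water, for 2 or 5 months. Each of the 4 groups had 3 libraries, 12 in all. Cells other than hepatocytes were not targeted, and the libraries were made from whole liver.

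Insulin binding switches on the tyrosine kinase of its receptor, which phosphorylates the substrates IRS1 and IRS2. These recruit phosphoinositide 3-kinase, whose lipid product brings AKT to the membrane, and active AKT phosphorylates the FOXO factors and keeps them out of the nucleus. In the liver this shuts down genes of glucose production and, with other factors, turns on genes of glucose use and fat synthesis. Counts of mRNA measure neither the phosphorylation nor the place of these proteins in the cell.

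Total counts ran from 16367775 to 27452284 per library, and the 12 libraries had between 20072 and 21966 genes with a count. The targeted gene, Pparg, was counted over its whole length, so the floxed exons were not separated from the rest, and its counts did not check the deletion. Its level in normalized CPM, the counts of a gene scaled for library size and composition, was 38.8, 41.4 and 37.6 in WT and 50.4, 66.5 and 52.0 in PPARγ-KO at 2 months, and 36.9, 41.4 and 37.1 in WT and 86.5, 92.9 and 75.0 in PPARγ-KO at 5 months. Pparg was thus higher in the libraries labelled PPARγ-KO, and directions below are those of the labels. All 10 hepatocyte markers listed were present in every group, at a summed 56373 to 88549 CPM. Cfd, the adipsin gene and a known PPARγ target, was picked out after its values were seen: it lay at 3.602 to 32.7 CPM in the 6 WT libraries and had 0 counts in each of the 6 libraries labelled PPARγ-KO. WT replicate 1 at 2 months lay furthest from the other libraries of its group. Nothing in the sources used here says whether libraries of 1 group came from separate animals, so p-values measure the spread between these libraries. The feeding state and hour at which livers were taken are not given for any group. Their part in the comparisons, those of the genotypes included, was not tested.

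Among those of the 10 genes called between genotypes, Foxo3 and Grb14 at 5 months had the largest changes, and their calls at that time held under all 14 alternatives. In the libraries labelled PPARγ-KO, Foxo3 was 1.69-fold higher at 5 months, and Grb14 was 1.31-fold higher at 2 months and 1.32-fold higher at 5 months. At 5 months Pik3r1 was also higher, 1.18-fold, and Akt1 lower, at 0.860 times its WT level, with calls that several alternatives removed. Insr, Irs1, Irs2, Pik3ca, Akt2 and Foxo1 did not pass the test between genotypes at either time. Insr mRNA fell from 2 to 5 months in both genotypes, beside a trend with gene length that ran through all genes over the same time.

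**Figure D1:**
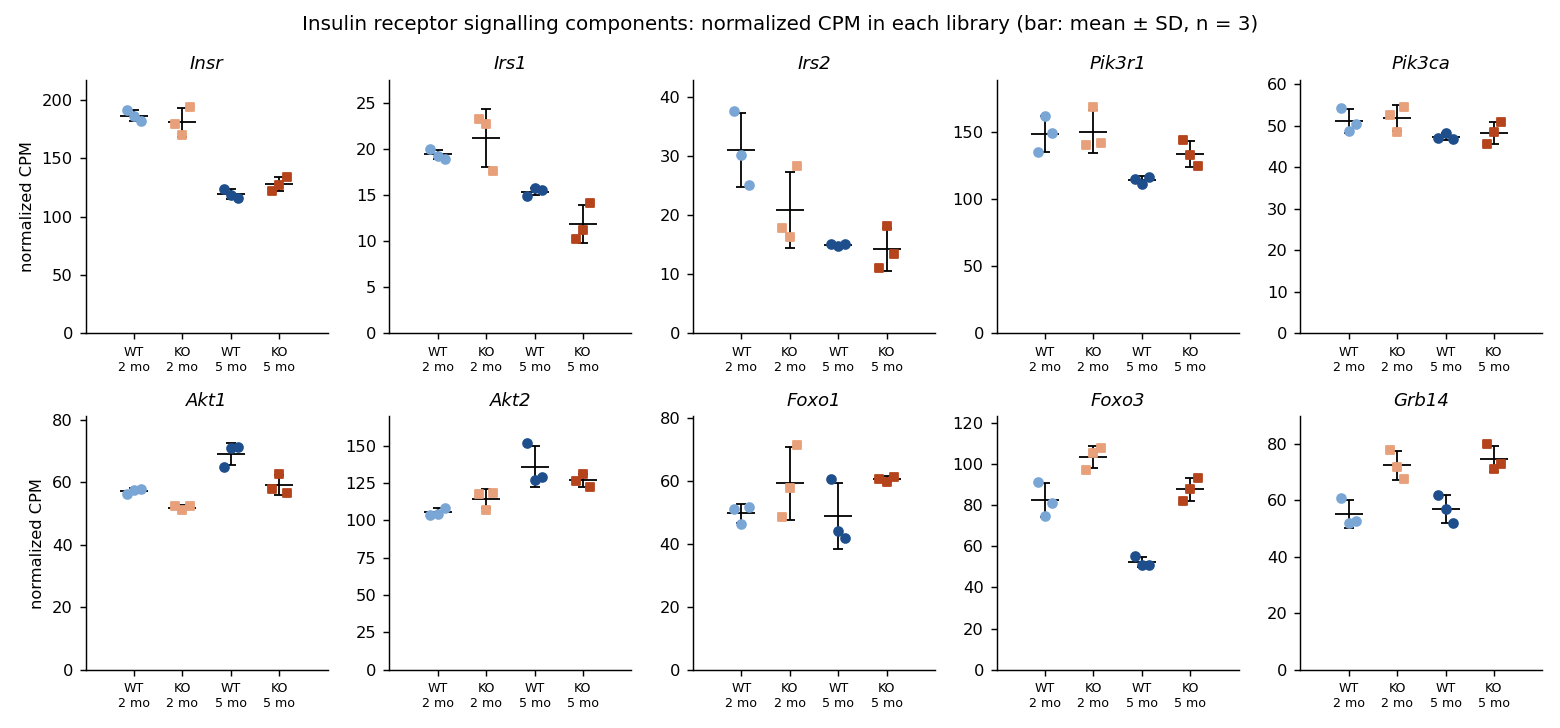
Normalized CPM of the 10 components in each library (vertical axes, from 0), in WT (circles) and PPARγ-KO (squares) after 2 and 5 months of FFD; black bars are the mean ± SD of 3 libraries. The Foxo3 and Grb14 points of PPARγ-KO lie above those of WT at both times, and the Insr points of both genotypes are lower at 5 than at 2 months.

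Levels between genes are compared per length, in TPM, a unit that divides counts by the length of the gene, calculated with the gene lengths in the files. In WT at 2 months Pik3r1 had 41.6 ± 5.90 TPM (SD, n = 3), Akt2 41.5 ± 2.92, Akt1 39.3 ± 2.64 and Insr 38.2 ± 1.48, and these neighbours did not differ beyond their SDs. Foxo3 followed with 30.5 ± 1.38 TPM and Grb14 with 21.4 ± 0.737 TPM, each apart from its neighbours. Foxo1 (16.1 ± 0.897 TPM), Pik3ca (15.8 ± 0.0909 TPM) and Irs2 (13.7 ± 2.17 TPM) came next, with SDs that met. Irs1 was the least abundant, at 5.95 ± 0.208 TPM. Irs1 and Irs2 were the lowest and the next lowest of the 10 in PPARγ-KO at 5 months as well, at 2.47 ± 0.465 and 4.25 ± 0.999 TPM, where Akt2 was the highest at 33.8 ± 0.406 TPM.

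Insr encodes the insulin receptor itself and lies on chromosome 8 (mm10, chr8:3122061-3279617, minus strand). Its level was 192, 186 and 182 CPM in WT and 179, 170 and 194 CPM in PPARγ-KO at 2 months. After 5 months the level was 124, 118 and 116 CPM in WT and 122, 127 and 134 CPM in PPARγ-KO. The genotypes overlapped at both times, while no library at 5 months reached any library at 2 months. The log2 fold change of PPARγ-KO over WT was -0.05 (95% confidence interval -0.21 to 0.12) at 2 months and 0.11 (-0.03 to 0.24) at 5 months, with edgeR adjusted p = 0.791 and 0.286.

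Irs1 and Irs2 encode the docking proteins that the receptor phosphorylates. Irs1 (chr1:82233101-82291416, minus strand) was at 19.96, 19.2 and 18.9 CPM in WT and 23.2, 22.6 and 17.6 CPM in PPARγ-KO at 2 months, and the genotypes overlapped. The 5-month levels were 14.9, 15.7 and 15.5 CPM in WT and 10.2, 11.2 and 14.1 CPM in PPARγ-KO, so that every PPARγ-KO library was below every WT library. That difference, a log2 fold change of -0.37 ± 0.12 (SE), had an edgeR adjusted p of 0.0538 and was not called. It was called without PPARγ-KO replicate 3, the highest of its group, at a log2 fold change of -0.51, and also with library size alone, without the filter on low counts and with gene length offsets.

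Irs2 (chr8:10984681-11008458, minus strand) is known to be induced by FOXO factors and in fasting. Its level was 37.7, 30.2 and 25.2 CPM in WT and 17.9, 16.4 and 28.3 CPM in PPARγ-KO at 2 months, and 15.1, 14.7 and 15.1 CPM in WT and 11.0, 18.1 and 13.4 CPM in PPARγ-KO at 5 months. The 3 WT libraries at 5 months were almost equal, whereas those of the other groups spread widely. The log2 fold change of PPARγ-KO over WT was -0.57 at 2 months, with an interval of -1.16 to 0.03 that still allows more than a halving, and -0.07 (-0.41 to 0.28) at 5 months, with edgeR adjusted p = 0.286 and 0.822.

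The stretches before the RefSeq starts of both substrate genes are shown because they share an arrangement of short motifs. RefSeq promoter windows (250 bases before to 50 after a start, GRCm38.p6, the same assembly as mm10) were found for 9 of the 10 genes, all but Insr, and were searched on both strands for an E-box (CACGTG), for TGTTTTG, known as an insulin response element, for the FOXO element GTAAACA, and for DR1, the direct repeat that PPARγ binds with RXR. In both stretches the E-box is followed by TGTTTTG on the same strand. In Irs1 the motifs share the bases TG, and in Irs2 a single base separates them. Capitals mark the motifs, and the sequences read 5′ to 3′ on the gene's strand:
Irs1, chr1:82291440-82291579, minus strand: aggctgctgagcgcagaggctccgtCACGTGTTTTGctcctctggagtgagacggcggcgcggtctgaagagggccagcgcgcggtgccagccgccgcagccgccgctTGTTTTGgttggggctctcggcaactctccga
Irs2, chr8:11008935-11008998, minus strand: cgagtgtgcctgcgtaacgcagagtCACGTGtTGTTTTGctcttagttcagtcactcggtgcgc

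The Irs1 E-box starts 115 bases before the RefSeq start and that of Irs2 44 bases before it, and Irs1 holds a further TGTTTTG that starts 32 bases before it. No exon of the GENCODE annotation overlaps either stretch, and that of Irs2 lies within the span of the opposite-strand gene 9530052E02Rik. Of all 32851 RefSeq windows of this length, 7.15% held the E-box, 6.28% TGTTTTG, 3.65% the FOXO element and 0.0396% the DR1 repeat. The share of windows with an E-box followed by TGTTTTG was not counted. Among the windows of the 9 genes, the only other match was a FOXO element in that of Akt1, given with that gene. These matches are letters in a window and do not show that a factor binds there.

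Pik3r1 encodes the p85α regulatory subunit of phosphoinositide 3-kinase, which docks on the phosphorylated substrates, and lies at chr13:101680563-101768217 on the minus strand. Its level was 135, 162 and 149 CPM in WT and 140, 169 and 142 CPM in PPARγ-KO at 2 months, with overlap. At 5 months it was 115, 111 and 117 CPM in WT and 144, 133 and 125 CPM in PPARγ-KO, without overlap. The gene was higher in PPARγ-KO at 5 months, with a log2 fold change of 0.24 ± 0.067 (edgeR adjusted p = 0.0258). The call was lost with library size alone, the replicate block, all 12 libraries in one fit, gene length offsets, or without WT replicate 2 or 3 or PPARγ-KO replicate 1 or 2, with adjusted p up to 0.115.

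Pik3ca encodes the p110α catalytic subunit and lies at chr3:32397671-32468486 on the plus strand. Its level was 54.3, 48.8 and 50.4 CPM in WT and 52.7, 48.5 and 54.7 CPM in PPARγ-KO at 2 months, and 47.0, 48.4 and 46.7 CPM in WT and 45.5, 48.4 and 50.9 CPM in PPARγ-KO at 5 months. All 4 groups lay within a narrow range. The interval of the log2 fold change of PPARγ-KO over WT was -0.15 to 0.19 at 2 months and -0.11 to 0.18 at 5 months. Reads of Gm37123, which overlaps Pik3ca on the same strand, amounted to 2.23% of those of Pik3ca; for the other components no overlapping gene had more than 0.282%.

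Akt1 and Akt2 encode the kinases that carry the signal from the membrane, of which Akt2 is known as the main form in insulin action on liver metabolism. Akt1 (chr12:112653821-112674884, minus strand) was at 56.5, 57.6 and 57.9 CPM in WT and 52.4, 51.1 and 52.3 CPM in PPARγ-KO at 2 months. The levels after 5 months were 65.0, 71.0 and 71.4 CPM in WT and 57.9, 62.6 and 56.5 CPM in PPARγ-KO. Every PPARγ-KO library was below every WT library of the same time. PPARγ-KO differed from WT by a log2 fold change of -0.14 ± 0.063 (edgeR adjusted p = 0.258) at 2 months and -0.22 ± 0.069 (adjusted p = 0.0442) at 5 months, so that Akt1 was called lower at 5 months. With DESeq2, the replicate block, gene length offsets, or without WT replicate 2 or 3 or PPARγ-KO replicate 1 or 3, it was no longer called, with adjusted p up to 0.171.

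The promoter window of Akt1 held the FOXO element on the opposite strand, where it reads TGTTTAC on the gene's strand, and the stretch around it is shown because no other window of these genes had one. It starts 161 bases before the RefSeq start, and the capitals mark it:
Akt1, chr12:112675014-112675070, minus strand: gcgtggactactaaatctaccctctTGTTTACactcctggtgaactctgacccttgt

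Akt2 (chr7:27591552-27640826, plus strand) was at 103, 104 and 108 CPM in WT and 118, 107 and 118 CPM in PPARγ-KO at 2 months, and at 152, 127 and 129 CPM in WT and 127, 131 and 123 CPM in PPARγ-KO at 5 months. The genotypes overlapped at both times. The log2 fold change of PPARγ-KO over WT was 0.12 (-0.04 to 0.27) at 2 months and -0.09 (-0.25 to 0.07) at 5 months.

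Foxo1 and Foxo3 encode the factors that AKT holds in the cytoplasm. Foxo1, which drives gluconeogenic genes in the fasted liver (chr3:52268336-52353221, plus strand), was at 51.2, 46.3 and 51.9 CPM in WT and 48.6, 57.9 and 71.7 CPM in PPARγ-KO at 2 months. At 5 months it was at 60.8, 44.2 and 41.8 CPM in WT and 60.7, 59.7 and 61.5 CPM in PPARγ-KO. WT replicate 1 at 5 months stood with the PPARγ-KO libraries and well above the other WT libraries. The log2 fold change at 5 months was 0.32 ± 0.12 (edgeR adjusted p = 0.112), and without that library it was called at 0.50. The WT libraries left in that fit, replicates 2 and 3, differed least of all pairs of replicates, at 2.44 chi-square per gene. That fit called 3078 of all genes, against 2602 in the reported fit. DESeq2, the replicate block and the fit without the filter also called Foxo1.

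Foxo3, a factor of stress resistance and autophagy genes (chr10:42181841-42276755, minus strand), was at 91.1, 74.9 and 81.2 CPM in WT and 97.1, 106 and 108 CPM in PPARγ-KO at 2 months. At 5 months it was at 55.1, 50.8 and 50.9 CPM in WT and 82.1, 87.9 and 93.1 CPM in PPARγ-KO. The genotypes did not overlap at either time, and the change of that difference between the times did not pass its test (edgeR adjusted p = 0.0736). PPARγ-KO over WT gave a log2 fold change of 0.33 ± 0.085 (edgeR adjusted p = 0.0680, not called) at 2 months and 0.76 ± 0.069 (adjusted p = 1.25e-05, 1.69-fold, interval 1.52 to 1.87) at 5 months. The 5-month call held under all 14 alternatives, at 0.69 to 0.81, and the 2-month difference was called under 4 of 15. Akt1, Foxo3 and Grb14 stand in gene lists that the study drew from these same samples, so those lists are no independent evidence of their direction.

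Grb14 encodes an adaptor that binds the activated receptor and inhibits its kinase, and it is known as a brake on insulin signalling in the liver (chr2:64912476-65024987, minus strand). Its level was 60.8, 51.8 and 52.5 CPM in WT and 77.7, 71.9 and 67.4 CPM in PPARγ-KO at 2 months. At 5 months it was 61.8, 56.8 and 52.0 CPM in WT and 80.0, 71.2 and 72.7 CPM in PPARγ-KO. All 6 PPARγ-KO libraries were above all 6 WT libraries. The log2 fold change was 0.39 ± 0.087 (edgeR adjusted p = 0.0381) at 2 months and 0.40 ± 0.075 (adjusted p = 0.00241) at 5 months, and the 5-month call held under all 14 alternatives. The 2-month call was lost with library size alone and without WT replicate 2 or 3 or any 1 PPARγ-KO replicate, with adjusted p up to 0.168.

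**Figure D2:**
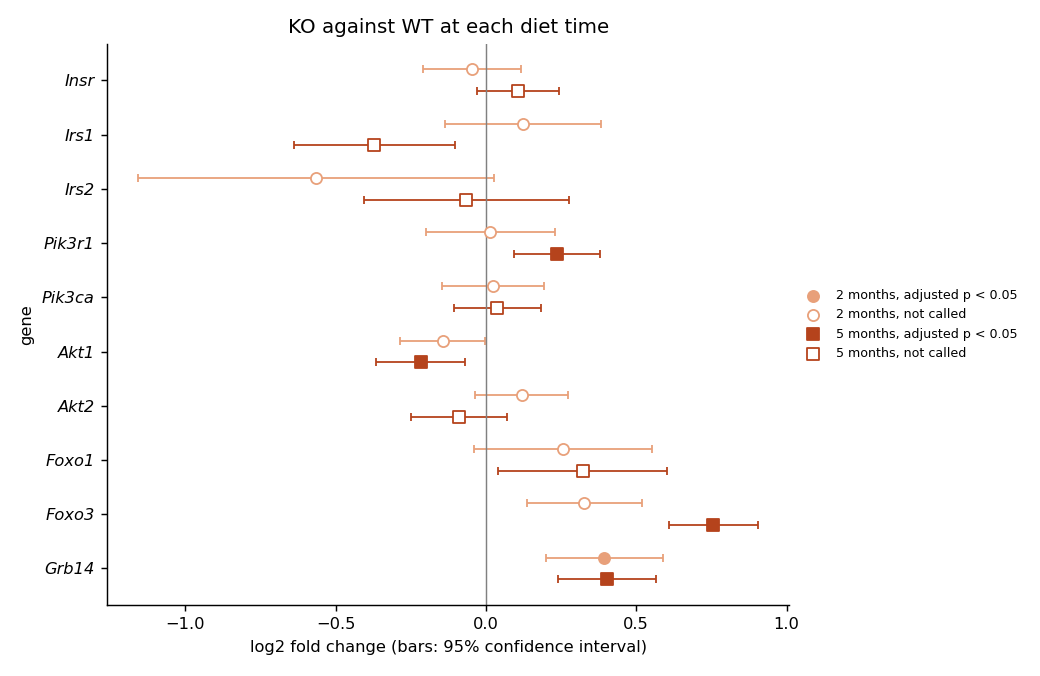
Log2 fold change of PPARγ-KO over WT for each component (horizontal axis) after 2 months (circles) and 5 months (squares) of FFD, with 95% confidence intervals; filled symbols passed an edgeR adjusted p of 0.05. Grb14 was called at both times, with values of 0.39 and 0.40, and Foxo3 reached 0.76 at 5 months.

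Counted together, 1 of the 10 components was called at 2 months, where 3.56% of all 14573 genes tested were, and 4 of 10 were called at 5 months, where 18.4% of 14138 were. The gene called at 2 months was higher in PPARγ-KO, as were 1.78% of all genes, with 1.78% lower. At 5 months 3 were higher, beside 8.90% of all genes, and 1 was lower, beside 9.51%. Leaving out 1 library moved the count to 0 or 2 at 2 months (2 without WT replicate 1) and to 2 at 5 months without WT replicate 2 or 3 or PPARγ-KO replicate 1. The median log2 fold change of the 10 was 0.07 at both times, beside -0.0048 and -0.0058 for all genes. WT and PPARγ-KO libraries did not overlap for 3 of the 10 at 2 months and for 5 at 5 months, against 24.1% and 34.8% of all genes tested. In bulk liver, fewer cells of a type and less RNA per cell cannot be told apart. The summed level of 10 macrophage markers was 493 to 628 CPM in WT and 511 to 613 CPM in PPARγ-KO at 2 months, but 1384 to 1598 CPM in WT and 635 to 875 CPM in PPARγ-KO at 5 months, where 9 of the 10 were called lower. None of the 10 was at 0 in any group, and the part of these cells in the differences above was not tested.

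Whether the genotype difference itself changed between 2 and 5 months was tested in a fit of all 12 libraries. None of the 10 components was called by edgeR, where 1.57% of all 15127 genes tested were (0.661% upward and 0.912% downward), and 2 had an unadjusted p under 0.05. These were Foxo3, whose difference grew by a log2 value of 0.42 (edgeR adjusted p = 0.0736), and Irs1, whose difference moved by -0.50 (edgeR adjusted p = 0.1696). DESeq2 called 1 of the 10, Foxo3, which was also called with library size alone, without the filter on low counts, and without WT replicate 2 at 2 months. For Grb14 the change was -0.0021 with an interval of -0.26 to 0.25.

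The comparison of 5 with 2 months of diet asks how the components moved as feeding went on. Time on the diet goes with the age of the mice, and the sources used here do not say whether libraries of both times were made and sequenced together, nor the feeding state or hour at which livers were taken, so these cannot be told apart from the diet. The change over time also went with gene length throughout the transcriptome. In WT the median log2 fold change of 5 over 2 months was 0.40 in the shortest of 5 length classes of genes and -0.29 in the longest, and in PPARγ-KO it was 0.29 and -0.23. Between genotypes the medians of the length classes lay between -0.0078 and -0.00036 at 2 months and between -0.07 and 0.05 at 5 months. Of the 10 components 8 lie in the longest class, Irs2 in the next and Akt1 in the middle class, and what lies behind the length trend was not tested. The fits were therefore repeated with a trend against gene length taken out of each library, an alternative added after the data had been seen.

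**Figure D3:**
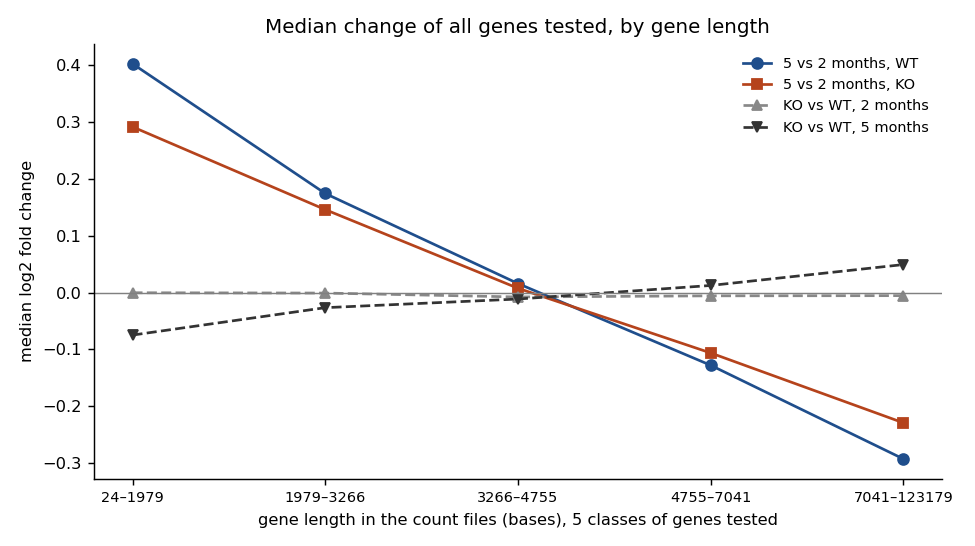
Median log2 fold change of all genes tested (vertical axis) in 5 classes of gene length (horizontal axis, in bases) for 5 over 2 months in WT (circles) and PPARγ-KO (squares), and for PPARγ-KO over WT at 2 months (triangles up) and 5 months (triangles down). Both lines of change over time fall from the shortest to the longest class, from 0.40 to -0.29 in WT and from 0.29 to -0.23 in PPARγ-KO.

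In WT, 7 of the 10 components were called between 5 and 2 months, beside 46.4% of all 14491 genes tested. Of the components 5 were lower and 2 higher, beside 22.7% and 23.8% of all genes. In the longest length class, which holds most of the components, 45.6% of genes were called lower and 7.70% higher. Lower at 5 months were Insr, with a log2 fold change of -0.65 (edgeR adjusted p = 5.07e-05), Irs2 with -1.054 (adjusted p = 0.000188) and Foxo3 with -0.66 (adjusted p = 0.000143). The Irs2 change is the largest of the 10, a level at 5 months 0.482 times that at 2 months. Irs1 fell by 0.34 and Pik3r1 by 0.38 (edgeR adjusted p = 0.0131 and 0.00306), and these calls were lost with the gene length offsets, at -0.08 and -0.10. Akt1 rose by 0.27 and Akt2 by 0.37 (edgeR adjusted p = 0.00904 and 0.00440). With the offsets the changes of Insr (-0.29), Irs2 (-0.91), Foxo3 (-0.46), Akt1 (0.26) and Akt2 (0.55) stayed past the threshold, so that 5 of the 10 were called beside 38.6% of all genes.

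In PPARγ-KO, 4 of the 10 were called over the same time, beside 44.9% of all 14478 genes tested, a share close to that of the components. Of the 10, 3 were lower and 1 higher, beside 22.2% and 22.7% of all genes. In the longest length class 42.2% of genes were called lower and 8.79% higher. Irs1 had the largest change of the 10, a log2 fold change of -0.84 (edgeR adjusted p = 0.00102), and Insr fell by 0.51 (adjusted p = 0.000114) and Foxo3 by 0.24 (adjusted p = 0.0137). Akt1 rose by 0.18 (edgeR adjusted p = 0.0394), and this call was lost under 9 of 14 alternatives. Without PPARγ-KO replicate 1 at 5 months, 2 components were called. With the gene length offsets Insr (-0.21), Irs1 (-0.63) and Akt1 (0.18) stayed called, Foxo3 (-0.07) was lost, and Akt2 (0.30) and Grb14 (0.20) were called higher. Irs2 had a log2 fold change of -0.57 with an interval of -1.29 to 0.15 and did not pass. Groups of the 2 times did not overlap for 8 of the 10 components in WT and for 5 in PPARγ-KO, against 56.7% and 55.6% of all genes tested.

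**Figure D4:**
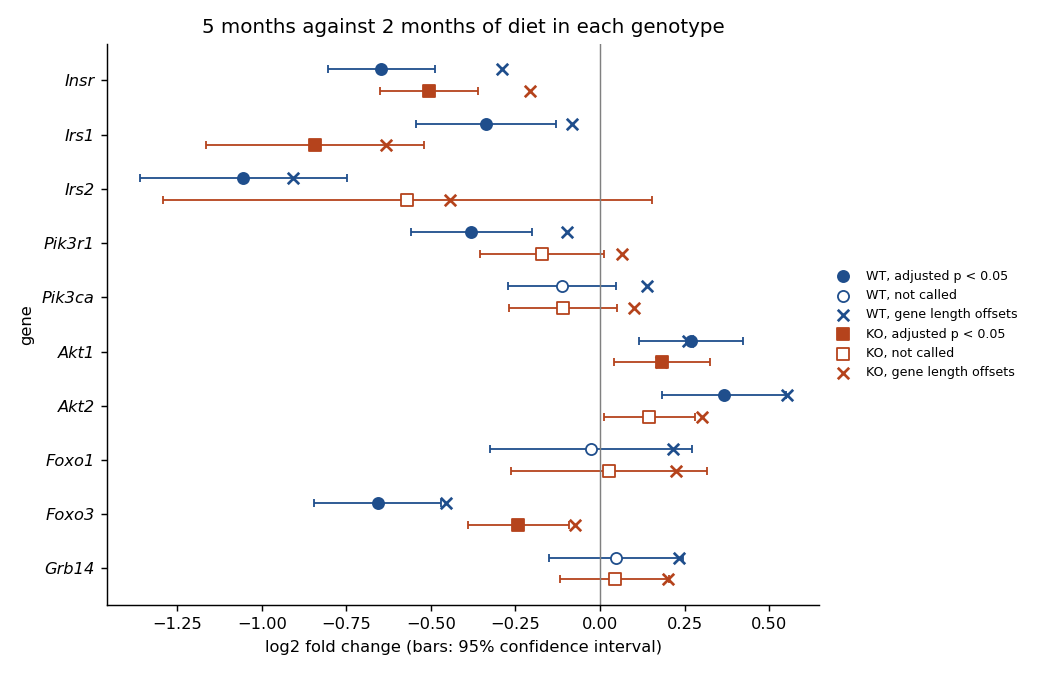
Log2 fold change of 5 over 2 months of FFD for each component (horizontal axis) in WT (circles) and PPARγ-KO (squares), with 95% confidence intervals; filled symbols passed an edgeR adjusted p of 0.05, and crosses are the values with gene length offsets. The crosses lie to the right of the symbols for all components but Akt1, and those of Insr stay below 0 in both genotypes, at -0.29 and -0.21.

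The other genes of the pathway were taken from a list of 88, of which 84 passed the filter on low counts in each comparison. The other 4, Insrr, Irs3, Irs4 and Foxo6, were not tested. At 2 months 5 of the 84 were called, 4 higher and 1 lower, and at 5 months 18, 9 in each direction. As shares, 5.95% and 21.4% stand beside the 3.56% and 18.4% of all genes, and the median log2 fold change of the 84 was -0.01 and 0.05. At 2 months 8 of the 84 were called with the replicate number as a block, 13 without WT replicate 1, and 1 or 2 without any other single library. At 5 months 7 or 8 were called without WT replicate 2 or 3 or PPARγ-KO replicate 3. Of the genes named below, those called at 2 months lost the call under 5 or 6 of 15 alternatives, Hk2 excepted, and at 5 months Sh2b2, Pik3cd, Ide, Tbc1d4, Klf15, Sesn3 and Pnpla3 lost it under 7 to 10 of 14.

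Among other receptors and adaptors, Crkl, an SH2 and SH3 adaptor, was higher at both times, by 0.38 and 0.36 on the log2 scale. Sh2b2, the adaptor APS, was lower at 5 months at a low level, 2.63 ± 0.0420 against 1.51 ± 0.326 CPM. In this group 2 of 16 genes tested were called at 2 months and 3 of 16 at 5 months. Of all genes tested, 3.56% and 18.4% were called.

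Of 14 other genes at the level of phosphoinositide 3-kinase and AKT, 0 were called at 2 months by edgeR, beside 3.56% of all genes. At 5 months 4 were called by edgeR, beside 18.4% of all genes. Pik3c2a, a class II lipid kinase (log2 fold change 0.35), Rptor, the raptor subunit of mTOR complex 1 (0.26), and Prkcz, an atypical protein kinase C (0.45), were higher in PPARγ-KO. Pik3cd, the catalytic subunit known from leukocytes, was lower, at 17.7 ± 2.30 CPM in WT and 8.58 ± 3.51 CPM in PPARγ-KO, in the libraries where the macrophage markers were lower.

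Among 25 negative regulators 3 were called at 2 months, all higher, and 7 at 5 months, 4 higher and 3 lower. Of all genes tested, 3.56% were called at 2 months (1.78% higher) and 18.4% at 5 months (8.90% higher and 9.51% lower). The 3 regulators at 2 months were Ahsg, the secreted glycoprotein fetuin-A (log2 fold change 0.60), Enpp1, which binds and inhibits the receptor (0.36), and Ptprf, the receptor phosphatase LAR (0.36). Ptprf was higher at 5 months too, from 245 ± 11.6 CPM in WT to 312 ± 20.3 CPM in PPARγ-KO (edgeR adjusted p = 0.00333). Ptpn1, the phosphatase PTP1B that dephosphorylates the receptor, went the other way at 5 months, from 49.5 ± 2.79 to 35.9 ± 0.700 CPM (log2 fold change -0.45, edgeR adjusted p = 0.000481). Grb7, of the same family as Grb14 (0.43), Phlpp1, an AKT phosphatase (0.32), and Ide, the insulin-degrading enzyme (0.22), were higher, and Prkcd (-0.53) and Inpp5d, the phosphatase SHIP1 of blood cells (-0.50), were lower. Inpp5d and Prkcd are also expressed in macrophages, whose markers were lower in the same libraries. Ptpn1 was at 37.15 ± 5.54 CPM in WT and 35.1 ± 1.87 CPM in PPARγ-KO at 2 months, with only WT at 5 months above. The part of macrophages in the differences of these genes, Ptpn1 included, was not tested.

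Among the 20 downstream effectors tested, 0 were called at 2 months by edgeR, beside 3.56% of all genes. At 5 months 1 was higher and 3 were lower, beside 8.90% and 9.51% of all genes. Tsc1, a brake on mTOR complex 1, was higher (log2 fold change 0.38), and Tbc1d1 (-0.63) and Tbc1d4 (-0.51), GTPase-activating proteins that AKT phosphorylates, and the ribosomal protein gene Rps6 (-0.26) were lower. Of 9 genes of the RAS and MAP kinase branch 0 were called by edgeR at either time, beside 3.56% and 18.4% of all genes.

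Genes whose mRNA is known to answer to the pathway were described as lists of FOXO-induced and insulin-induced genes. Of 15 FOXO-induced genes 1 was called at 2 months, beside 3.56% of all genes, and 8 at 5 months, 7 higher and 1 lower, beside 18.4%. The 5-month count was 4 without WT replicate 3, PPARγ-KO replicate 2 or PPARγ-KO replicate 3, and 5 with library size alone or all 12 libraries in one fit. The 2-month count was 4 with DESeq2, 6 without the filter on low counts, 3 with all 12 libraries in one fit, 2 without WT replicate 1, and 0 without WT replicate 2, WT replicate 3 or PPARγ-KO replicate 2. At 5 months the largest was Ppargc1a, the coactivator PGC-1α, at 7.11, 6.76 and 6.89 CPM in WT and 17.5, 17.7 and 16.3 CPM in PPARγ-KO at 5 months (log2 fold change 1.32 ± 0.10, edgeR adjusted p = 4.65e-06). Ccng2, a cyclin (0.62), the sestrins Sesn1 (0.51) and Sesn3 (0.22), Cited2 (0.35), Klf15 (0.33), a factor of amino acid use in gluconeogenesis, and Mttp (0.29), which loads lipid onto apolipoprotein B, were the others that were higher. Klf15 was called higher at 2 months as well (0.64, edgeR adjusted p = 0.0482), a call that the replicate block removed.

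The gluconeogenic and other well-known FOXO-induced genes did not move as a block. G6pc, glucose-6-phosphatase, was lower at 5 months, at 531, 529 and 534 CPM in WT and 309, 363 and 331 CPM in PPARγ-KO (log2 fold change -0.66 ± 0.073, edgeR adjusted p = 6.06e-05). Pck1, which encodes phosphoenolpyruvate carboxykinase, had 1742 ± 265 CPM in WT and 1859 ± 332 CPM in PPARγ-KO, and its groups overlapped at both times. Igfbp1, a secreted protein whose mRNA insulin lowers within hours, ranged from 22.2 to 117 CPM among the WT libraries at 2 months. Its difference at that time was not detectable beside that spread. At 5 months Igfbp1 was at 118.2 ± 21.0 CPM in WT and 111.5 ± 20.2 CPM in PPARγ-KO, with overlap.

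Insulin-induced genes were mostly higher in PPARγ-KO at 5 months: 9 of 12 were called, 8 higher and 1 lower, beside 18.4% of all genes. With all 12 libraries in one fit 5 were called. At 2 months 2 of 12 were called, 1 in each direction, beside 3.56% of all genes. Fasn, fatty acid synthase, was 1127 ± 98.6 CPM in WT and 2038 ± 482 CPM in PPARγ-KO at 5 months. Acaca (log2 fold change 0.64), Elovl6 (1.27), Thrsp (1.16), Pnpla3 (1.07), Pnpla5 (1.48) and Bhlhe40 (0.43) were also called higher.

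Hk2, hexokinase 2, was the only gene of that list called lower in PPARγ-KO, at both times. It was lower by 2.00 on the log2 scale at 2 months (8.86 ± 3.11 against 2.22 ± 0.364 CPM) and by 1.90 at 5 months. Point estimates of 3 of the 12 were lower at 5 months, those of Hk2, Srebf1 and Egr1. Srebf1 was then at 755, 737 and 722 CPM in WT and 620, 687 and 473 CPM in PPARγ-KO, without overlap. Over time in WT, Pnpla3 (-1.95), Elovl6 (-1.30), Fasn (-1.24) and Thrsp (-1.21) fell and Eif4ebp1, the translation repressor 4E-BP1, rose (1.23). The falls of Fasn, Pnpla3 and Elovl6 lost their call under 8, 6 and 4 of 14 alternatives. In PPARγ-KO, Pnpla3 (-1.30) and Sh2b2 (-1.02) fell, and Trib3, a pseudokinase that binds AKT (1.202), Dok1 (0.99) and Eif4ebp1 (0.98) rose. Of the 84 pathway genes 46 were called over time in WT and 44 in PPARγ-KO, 54.8% and 52.4%, near the 46.4% and 44.9% of all genes, and 0 were called by edgeR for the difference between the genotype effects, against 3 by DESeq2.

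**Figure D5:**
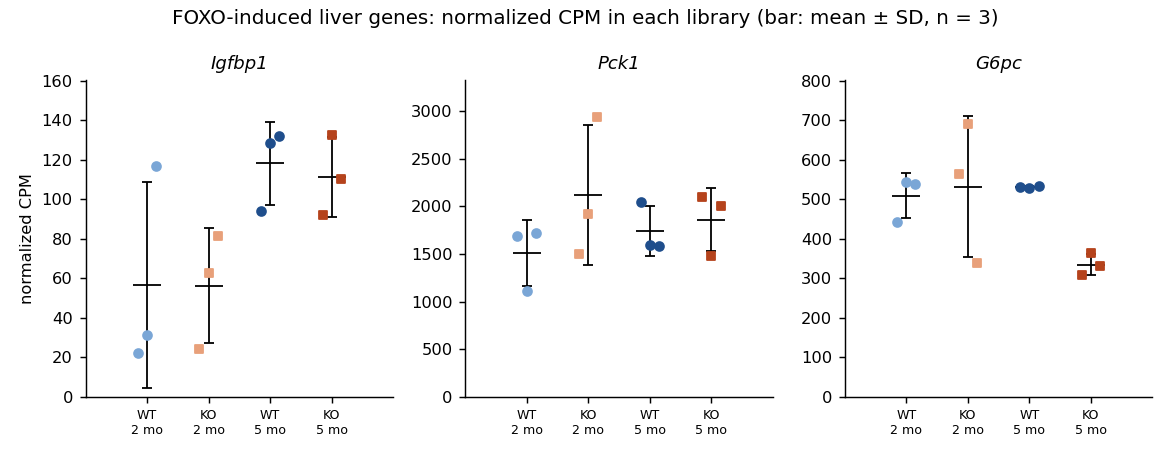
Normalized CPM of Igfbp1, Pck1 and G6pc in each library (vertical axes, from 0), in WT (circles) and PPARγ-KO (squares) after 2 and 5 months of FFD; black bars are the mean ± SD of 3 libraries. G6pc lies lower in PPARγ-KO at 5 months, and Igfbp1 spreads from 22.2 to 117 CPM in WT at 2 months.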

How the data were processed

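Liver mRNA was sequenced by Novogene on an Illumina NovaSeq. The authors deposited raw read counts per gene, with gene coordinates (mm10) and lengths. The study names STAR as the aligner and the submitters' processing notes name HISAT2; the counting program, the annotation version and the strand setting are not given in the sources used here. The counts are whole numbers, 1 file per library, and had not been normalized.

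Each pair of groups was fitted on its 6 libraries with edgeR 4.0.16 (R 4.3.3): filterByExpr, TMM scaling, robust quasi-likelihood F-test, two-sided, Benjamini-Hochberg adjustment over all genes tested, threshold 0.05. The change of the genotype effect was fitted on all 12 libraries. Confidence intervals are at 95%. Normalized CPM share a single TMM scaling over the 12 libraries, and TPM use the gene lengths in the files. Alternatives were a replicate block, DESeq2 1.42.0 or its size factors in edgeR, scaling by library size alone, testing genes without a filter or with a minimum of 10 counts throughout, a joint fit of the 12 libraries, leaving out single libraries, and, added after seeing the data, gene length offsets (a lowess trend of log2 CPM against log2 length, span 0.5, in each library). The scripts were tested on simulated data.

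The components and gene lists were chosen with earlier results of these data known. All 10 components are named in every comparison. Of the listed pathway, FOXO-induced and insulin-induced genes, those with an adjusted p below 0.05 between genotypes and a group mean of 1 CPM or more are named, the 5 largest called changes over time, and Igfbp1, Pck1 and G6pc in any case; some genes that meet this rule are not reported here. Same-numbered libraries of the genotypes deviated together at 2 months (correlations 0.212, 0.320 and 0.152 over 5000 genes, group means removed). At 5 months they did not (-0.0890, -0.0182 and -0.0861). Between libraries of different times, of any number, correlations ran from -0.3075 to 0.272 in WT and from -0.214 to 0.247 in PPARγ-KO. The labels give no source of a pairing. Replicates differed by 2.44 to 31.7 chi-square per gene, so none was an exact copy. The lowest value was that of WT replicates 2 and 3 at 5 months, and the next lowest pair had 9.40. Without WT replicate 2 or 3, 1601 and 1593 of all genes were called between genotypes at 5 months. Without WT replicate 1 there were 3078, and 2602 in the reported fit.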

Additional observations from a re-analysis of the deposited data

How the results depend on the processing

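Of the log2 fold changes of the 10 components under all alternatives, 144 of 150 kept their direction at 2 months, 137 of 140 at 5 months, 133 of 140 over time in each genotype and 170 of 190 for the difference of the genotype effects. With 3 libraries per group, several calls changed when a single library was left out.

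Components called between genotypes at 2 months were 1 in the reported fit, 2 with DESeq2, without the filter and with all 12 libraries in one fit, 0 with library size alone, and 0 to 2 with 1 library left out (2 without WT replicate 1, 0 without any other). At 5 months they were 2 to 5 of 10 with 1 library left out, with 2 without WT replicate 2 or 3 or PPARγ-KO replicate 1. Over time in PPARγ-KO they were 2 to 4, with 2 without PPARγ-KO replicate 1 at 5 months. For the difference of the genotype effects they were 1 with DESeq2, with library size alone and without the filter, and 0 to 1 with 1 library left out.

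Of the 84 other pathway genes at 2 months, 2 were called with library size alone, 12 without the filter, 10 with all 12 libraries in one fit, and 1 to 13 with 1 library left out (13 without WT replicate 1, 1 or 2 without any other). At 5 months 7 to 21 were called with 1 library left out, 7 or 8 without WT replicate 2 or 3 or PPARγ-KO replicate 3. For the difference of the genotype effects 3 were called with DESeq2, 1 without the filter and 0 to 6 with 1 library left out (6 without WT replicate 1 at 2 months). The causes were not tested.

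With the replicate number as a block, 1 component was called at 2 months, as without it, and 8 of the other pathway genes (9 with gene length offsets as well). At 5 months the block left 3 components, over time 7 in WT and 3 in PPARγ-KO, and 0 for the difference of the genotype effects.

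Signs turned for changes near 0 that were not called in the reported fit. With library size alone the genotype difference became -0.066 for Pik3r1 and -0.054 for Pik3ca at 2 months and -0.030 for Pik3ca at 5 months, the change over time -0.032 for Grb14 in WT and -0.030 for Foxo1 and -0.016 for Grb14 in PPARγ-KO, and the difference of the genotype effects 0.017 for Grb14. With gene length offsets Pik3ca became -0.0014 between genotypes at 5 months, 0.14 over time in WT, 0.10 in PPARγ-KO and -0.041 for the difference, Foxo1 0.22 over time in WT, and Pik3r1 0.065 over time in PPARγ-KO. The Pik3ca difference of the genotype effects was -0.0023 with DESeq2, -0.00024 with its size factors and -0.0049 without the filter. With 1 library left out, genotype differences ran from -0.079 to 0.079 (Pik3r1) and -0.013 to 0.069 (Pik3ca) at 2 months and from -0.29 to 0.098 (Irs2) at 5 months. Changes over time ran from -0.20 to 0.081 (Foxo1) and -0.0079 to 0.13 (Grb14) in WT and from -0.10 to 0.19 (Foxo1) and -0.0053 to 0.098 (Grb14) in PPARγ-KO, and differences of the genotype effects from -0.038 to 0.048 (Pik3ca), -0.071 to 0.24 (Foxo1) and -0.075 to 0.063 (Grb14).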

Other observations

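Markers of other liver cells moved with time and genotype in the libraries that hold these insulin pathway values. The summed level of 10 stellate cell markers was 624 to 773 CPM in WT and 473 to 481 CPM in PPARγ-KO at 2 months. At 5 months it was 715 to 870 and 563 to 637 CPM, with 4 called lower in PPARγ-KO, beside 9.51% of all genes. The sum for 10 endothelial markers was 365 to 395 CPM in WT and 315 to 335 CPM in PPARγ-KO at 5 months. Of these, 5 were called lower, beside 9.51% of all genes. Over time 6 of the 10 fell in WT and 8 in PPARγ-KO, beside 22.7% and 22.2% of all genes, and 1 rose in each. The trend with gene length was not taken out of these calls. Of the 10 hepatocyte markers 4 were called higher and 1 lower in PPARγ-KO at 5 months, beside 8.90% and 9.51% of all genes. Their summed level was 60357 to 65369 CPM in WT and 75380 to 88549 CPM in PPARγ-KO. That difference in the sum was in Alb, at 33839 to 38586 CPM in WT and 52164 to 62610 CPM in PPARγ-KO, while the other 9 summed to 26212 to 26783 CPM in WT and 23216 to 25939 CPM in PPARγ-KO. Of those 9, Cyp3a11 was at 6835 ± 311 CPM in WT and 3034 ± 812 CPM in PPARγ-KO. By point estimate 6 of the 10 hepatocyte markers were higher in PPARγ-KO and 4 lower at 5 months. At 2 months 9 were higher and 1 lower, with a median log2 fold change of 0.35. Called were 2 higher and 1 lower, beside 1.78% of all genes in each direction. Alb was then at 41664 to 48870 CPM in WT and 53651 to 63491 CPM in PPARγ-KO. The other 9 then summed to 14710 to 18679 CPM in WT and 19686 to 22720 CPM in PPARγ-KO. The part of these shifts in the values of the components was not tested.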
